A study of Mus musculus with 6 samples.

Results

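The genes described here are the Timm and Tomm genes of mouse, which encode the translocases that bring proteins through the inner and the outer mitochondrial membrane. They were taken by name, as every gene whose symbol begins with Timm or Tomm followed by a digit, which gave 25 of the 45706 genes counted (14 Timm and 11 Tomm). The cells were 3T3-L1, mouse embryonic fibroblasts able to form adipocytes when given adipogenic hormones, and carried either a scrambled shRNA (3 samples, genotype given as WT) or an shRNA against Rbms1, which encodes an RNA-binding protein (3 samples, RBMS1KD). The shRNAs were delivered by lentivirus and cells were kept under puromycin selection, with no clone named. All 6 samples received the same cocktail of IBMX, insulin, dexamethasone and rosiglitazone, and RNA was collected on day 7. The question was whether knockdown of RBMS1 altered adipocyte transcripts.

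Most mitochondrial proteins are made in the cytosol and must cross 1 or both mitochondrial membranes. The TOM complex of the outer membrane recognises them with receptors and passes them through a pore. The TIM23 complex then carries proteins with a cleavable presequence into the matrix or the inner membrane, and the TIM22 complex inserts carrier proteins that small TIM chaperones escort through the intermembrane space. Mitochondrial biogenesis is part of adipocyte differentiation, and nearly all subunits of the respiratory chain depend on this machinery.

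Rbms1 itself was measured at 113, 102 and 99.6 CPM (counts scaled to library size, corrected by TMM) in scrambled control replicates 1, 2 and 3 and at 49.2, 61.4 and 84.0 CPM in RBMS1 knockdown replicates 1, 2 and 3. All knockdown samples lay below all controls, and the log2 fold change was -0.69 (SE 0.20). In edgeR's quasi-likelihood test this gave a Benjamini-Hochberg adjusted p of 0.185. Total counts ranged from 3142695 to 11073098, and genes derived from ribosomal RNA took 43.0% of the counts in scrambled control replicate 2, the shallowest sample, and 8.12% to 17.8% in the others. A count of 3, taken as the detection floor, equalled between 0.220 and 1.49 CPM, which covers counting error only. The labels call the cells fibroblasts, but 12 adipocyte markers summed to between 12935 and 27259 CPM in every sample, whereas 5 leukocyte and endothelial markers summed to between 0.516 and 1.99 CPM, with Ptprc and Adgre1 at 0 throughout. Of the adipocyte markers 11 of 12 had a log2 fold change below 0 (median -0.42, but -0.71 without knockdown replicate 1, -0.25 without knockdown replicate 2 and -0.02 with library sizes alone), and edgeR called Retn alone (-1.67, adjusted p = 0.0967). DESeq2 also called Lpl, at -0.86 (adjusted p = 0.0321), and Cd36, which was higher at 0.74 (adjusted p = 0.0155). Retn and Lpl lie on chromosome 8, where 90.1% of 624 tested genes were below 0. With each chromosome's median removed, Retn was at -1.28 (adjusted p = 0.230 by edgeR) and Lpl at -0.48 (adjusted p = 0.772 by edgeR). The part of the chromosome in these 2 values was not tested. In bulk RNA, fewer cells of a type and less RNA per cell cannot be told apart. The study's methods call the 3 samples of a group biological replicates.

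None of the Timm and Tomm genes was called as changed in RBMS1 knockdown adipocytes. Of the 25 genes, 22 passed the filter on low counts (13 Timm and 9 Tomm). Called here means a Benjamini-Hochberg adjusted p from edgeR no greater than 0.1. Among the 22 genes 0 met this, against 1.22% of the 11440 genes tested (0.909% lower and 0.315% higher in the knockdown). DESeq2 also called 0 of them, against 3.22% of the genes it adjusted. At an unadjusted p under 0.05 edgeR counted 0 of the 22, against 12.4% of all tested genes. The smallest unadjusted p among the 22 genes was 0.078, for Tomm40l, with an adjusted p of 0.463 by edgeR. Their log2 fold changes ran from -0.54 (Timm8a1) to 0.39 (Tomm40l), with a median of -0.047 beside 0.004 for all tested genes, and 14 of the 22 were below 0. The groups did not overlap for 1 gene, Tomm40l, which was higher in all knockdown samples, a pattern found in 8.96% of all tested genes. No Timm or Tomm gene was lower in all knockdown samples, a pattern found in 9.55% of all tested genes.

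A p that misses the threshold does not show that a gene was unchanged, so the width of the estimates matters. Standard errors of the log2 fold change ran from 0.156 to 0.379, with a median of 0.204 (0.233 for all tested genes). The 95% interval of the fold change lay within 1.5-fold in both directions for 10 of the 22 genes and within 2-fold for 21, with Timm8a1 as the exception. It reached past 1.5-fold lower for 8 genes and past 1.5-fold higher for 6. Changes beyond 2-fold were therefore outside the interval for 21 of the genes, whereas a change of 1.5-fold was inside it for 12.

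**Figure D1:**
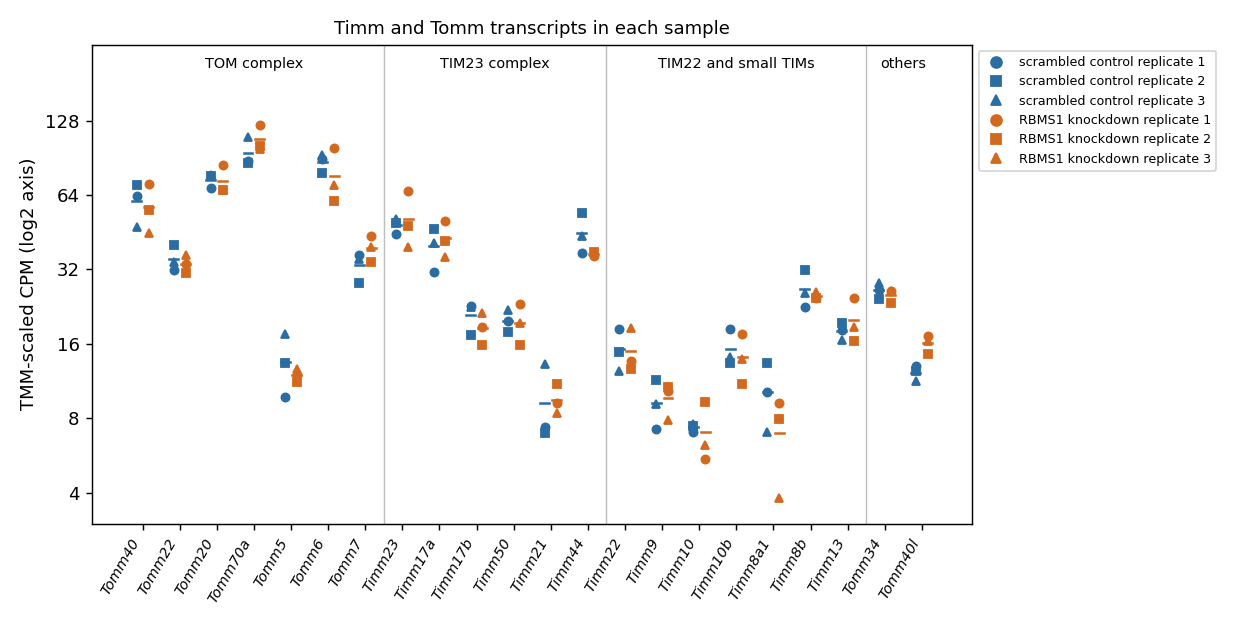
Level of the 22 tested Timm and Tomm genes in each sample, as TMM-scaled CPM on a log2 axis, with controls in blue, knockdown samples in orange, 1 symbol per replicate and a short line at the group mean. The 2 groups overlap for every gene but Tomm40l, at the right edge, where the 3 knockdown samples (14.6 to 17.3 CPM) sit above the 3 controls (11.4 to 13 CPM).

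The receptors of the TOM complex are Tomm20, Tomm22 and Tomm70a. Tomm20, which binds presequences, was at 68.4, 76.4 and 76.9 CPM in the controls and at 84.7, 66.9 and 66.8 CPM in the knockdown samples. Tomm70a, the receptor for carrier precursors bound to cytosolic chaperones, was at 88.3, 86.4 and 110 CPM in the controls and at 123, 102 and 98.5 CPM in the knockdown samples. For both receptors RBMS1 knockdown replicate 1 was the highest of the 6 samples, and the groups overlapped. The log2 fold changes were -0.02 (SE 0.156) for Tomm20 and 0.18 (SE 0.163) for Tomm70a, with adjusted p of 0.969 and 0.706 by edgeR. Tomm22, the central receptor that also organises the complex, gave 31.7, 40.2 and 34.4 CPM against 33.6, 31.0 and 36.7 CPM, a log2 fold change of -0.07. The ratio of Tomm20 to Tomm70a was 0.775, 0.885 and 0.700 in the controls and 0.686, 0.658 and 0.678 in the knockdown samples. These ratios did not overlap between the groups, whereas the levels of each gene alone did. Tomm20 lies on chromosome 8 and Tomm70a on chromosome 16, where the median log2 fold changes of tested genes were -0.38 and 0.07. With each chromosome's median removed, Tomm20 was at 0.37 and Tomm70a at 0.12, so their order was turned. The part of the chromosomes in this ratio was not tested. The gap between the lowest control and the highest knockdown ratio was small beside the spread of the controls (0.787 ± 0.0933, SD, n = 3), and with 3 samples against 3 no exact permutation test can give a p below 0.1, so no test is given.

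The pore of the TOM complex is Tomm40, with Tomm5, Tomm6 and Tomm7 as its small subunits. Tomm40 was at 63.5, 70.5 and 47.5 CPM in the controls and at 71.0, 55.8 and 45.1 CPM in the knockdown samples, a log2 fold change of -0.08 (SE 0.213). The lowest and the highest Tomm40 values of all samples were both in the knockdown group. Tomm6, the Timm or Tomm gene with the highest level per length (109 CPM per kb of protein-coding exon in the controls), was at 89.4, 78.9 and 93.1 CPM against 98.9, 60.6 and 70.5 CPM. Replicates 2 and 3 of the knockdown lay below every control for Tomm6 and replicate 1 lay above every control. The log2 fold change of Tomm6 was -0.19 (SE 0.196), with an adjusted p of 0.754 by edgeR. Tomm7, which in mammals is also needed to hold PINK1 at the outer membrane, gave 36.5, 28.3 and 35.4 CPM against 43.6, 34.4 and 39.4 CPM, a log2 fold change of 0.22. Tomm5 gave 9.78, 13.4 and 17.5 CPM against 11.9, 11.2 and 12.6 CPM, with every knockdown value inside the range of the controls. Summed over the 7 TOM genes, the level was 399 ± 14.2 CPM in the controls and 399 ± 58.9 CPM in the knockdown samples (SD, n = 3 each), so the means were alike and the knockdown samples were more spread.

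Tomm40l, a second gene for a Tomm40-type pore protein, was the gene closest to a call. It was at 13, 12.4 and 11.4 CPM in the controls and at 17.3, 14.6 and 16.4 CPM in the knockdown samples. All knockdown samples lay above all controls. The log2 fold change was 0.39 (SE 0.198, 95% interval -0.05 to 0.84), or 1.31-fold, and it stayed between 0.34 and 0.47 when any 1 sample was left out. With library sizes alone, where the median of all tested genes was 0.37, it was 0.76, with an unadjusted p of 0.029 and an adjusted p of 0.275 by edgeR. The ratio of Tomm40l to Tomm40 was 0.205, 0.176 and 0.239 in the controls and 0.243, 0.262 and 0.363 in the knockdown samples, again without overlap. Of 6 ratios formed between paralogs or partners, 2 were without overlap, this one and that of Tomm20 to Tomm70a. No share over gene pairs in general was computed. Among single tested genes, 9.55% were lower and 8.96% higher in all knockdown samples. Tomm40l lies on the minus strand at chr1:171216011-171222514 (GRCm38). On chromosome 1 the 675 tested genes centred on a log2 fold change of 0.25 (median), 21.6% being below 0, and with each chromosome's median removed Tomm40l was at 0.15 (adjusted p = 0.855 by edgeR). Its exons share 3304 of 5135 annotated bases with Nr1i3 on the opposite strand, a gene counted at 0 in 5 samples and at 2 in the other. The part of the chromosome in this value was not tested.

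Among the TIM23 genes, Timm23 and its partners Timm17a and Timm17b form the channel. Timm23 was at 44.7, 49.1 and 51.3 CPM in the controls and at 66.7, 48.2 and 39.4 CPM in the knockdown samples. The knockdown samples thus held the highest and the lowest value, and the log2 fold change was 0.09 (SE 0.204). Timm17a was at 31.3, 46.7 and 41.1 CPM against 50.5, 41.8 and 36.0 CPM, and Timm17b at 22.8, 17.4 and 22.5 CPM against 18.7, 15.8 and 21.4 CPM. The log2 fold changes of the paralogs were 0.11 and -0.17, and their ratio overlapped between the groups, at 1.37 to 2.69 in the controls and 1.68 to 2.7 in the knockdown samples. Their transcripts share a run of up to 47 identical bases. The estimated counts of Timm17a were not whole in 5 samples (tolerance 0.01) and those of Timm17b were whole in all 6.

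Timm50 is the receptor of the TIM23 complex and Timm21 links it to the TOM complex and the respiratory chain. Timm50 gave 19.9, 17.9 and 21.9 CPM against 23.3, 15.8 and 19.4 CPM, a log2 fold change of -0.03. Timm21 gave 7.37, 6.95 and 13.2 CPM against 9.20, 11.0 and 8.37 CPM, a log2 fold change of 0.03. Both overlapped between the groups. Timm44, which anchors the import motor to the channel, was at 37.2, 54.1 and 43.5 CPM in the controls and at 36.2, 37.8 and 37.4 CPM in the knockdown samples. The knockdown values were close together, near the lowest control, with a log2 fold change of -0.27 (SE 0.176, and -0.38 to -0.12 with 1 sample left out) and an adjusted p of 0.576 by edgeR. Timm44 and Tomm20 lie on chromosome 8 (chr8:4259731-4275913 and chr8:126930667-126945844), where 90.1% of the 624 tested genes were below 0 and the median log2 fold change was -0.38. With each chromosome's median removed, Timm44 was at 0.13 and Tomm20 at 0.37, the latter with an unadjusted p of 0.035 and an adjusted p of 0.457 by edgeR. The other 20 tested genes had a median of -0.047. The TIM23 genes summed to 163, 192 and 194 CPM in the controls and to 204.6, 170 and 162 CPM in the knockdown samples, which overlapped.

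In the TIM22 route, Timm22 forms the channel, Timm9 and Timm10 make the main small TIM chaperone, Timm10b docks it to the channel, and Timm8a1, Timm8b and Timm13 make up the second type of small TIM chaperone. Timm22 was at 18.4, 14.9 and 12.4 CPM in the controls and at 13.7, 12.6 and 18.5 CPM in the knockdown samples. Timm9 gave 7.21, 11.4 and 9.12 CPM against 10.4, 10.8 and 7.85 CPM, and Timm10 gave 7.05, 7.44 and 7.57 CPM against 5.46, 9.35 and 6.24 CPM. For these 3 genes the groups overlapped, and the log2 fold changes were -0.03, 0.08 and -0.07. Timm10b gave 18.4, 13.4 and 14.1 CPM against 17.5, 11.0 and 13.9 CPM, Timm8b gave 22.6, 31.8 and 25.8 CPM against 24.6, 24.5 and 25.8 CPM, and Timm13 gave 18.3, 19.4 and 16.5 CPM against 24.6, 16.5 and 18.6 CPM. Each overlapped between the groups, with log2 fold changes of -0.12, -0.09 and 0.14.

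Timm8a1, the mouse counterpart of the gene lost in deafness-dystonia syndrome, had the lowest fold change and the widest error. It was at 10.3, 13.4 and 7.05 CPM in the controls and at 9.20, 7.95 and 3.82 CPM in the knockdown samples. Only knockdown replicate 3 lay below every control. The log2 fold change was -0.54 (SE 0.379, 95% interval -1.39 to 0.32), with an adjusted p of 0.615 by edgeR, and it ran from -0.78 to -0.23 when 1 sample was left out. Its ratio to Timm8b was 0.383 ± 0.0963 in the controls and 0.282 ± 0.119 in the knockdown samples (SD, n = 3 each), with overlap. Summed over the 7 genes of this route, the level was 102 ± 9.55 CPM in the controls and 97.6 ± 6.78 CPM in the knockdown samples.

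Tomm34, a cytosolic co-chaperone of precursors, was at 26.4, 24.3 and 28.2 CPM against 26.2, 23.5 and 26.3 CPM and a log2 fold change of -0.06 (SE 0.166). The 3 genes that were not tested were Timm8a2 and Tomm20l, with 0 counts in every sample, and Tomm6os, an antisense transcript of Tomm6 with 0 to 4 counts in the controls and 3 to 9 in the knockdown samples. Timm8a2 and Tomm20l are paralogs of Timm8a1 and Tomm20, whose own transcripts were present in all samples. The counts of Tomm6, Tomm20, Timm8a1, Timm10b and Timm23 were also not whole in 3 to 6 samples. Tomm6 shares 859 of its 1131 annotated exonic bases with Gm21981 on the same strand, which held 0 to 18 counts per sample beside 159 to 960 for Tomm6. Timm29 stands in the table under an older name, 1810026J23Rik, so the name rule did not take it, and its log2 fold change was -0.12 (adjusted p = 0.840 by edgeR). Over all 25 genes the summed level was 723 ± 25.9 CPM in the controls and 718 ± 89.4 CPM in the knockdown samples (SD, n = 3 each), a ratio of 0.993.

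**Figure D2:**
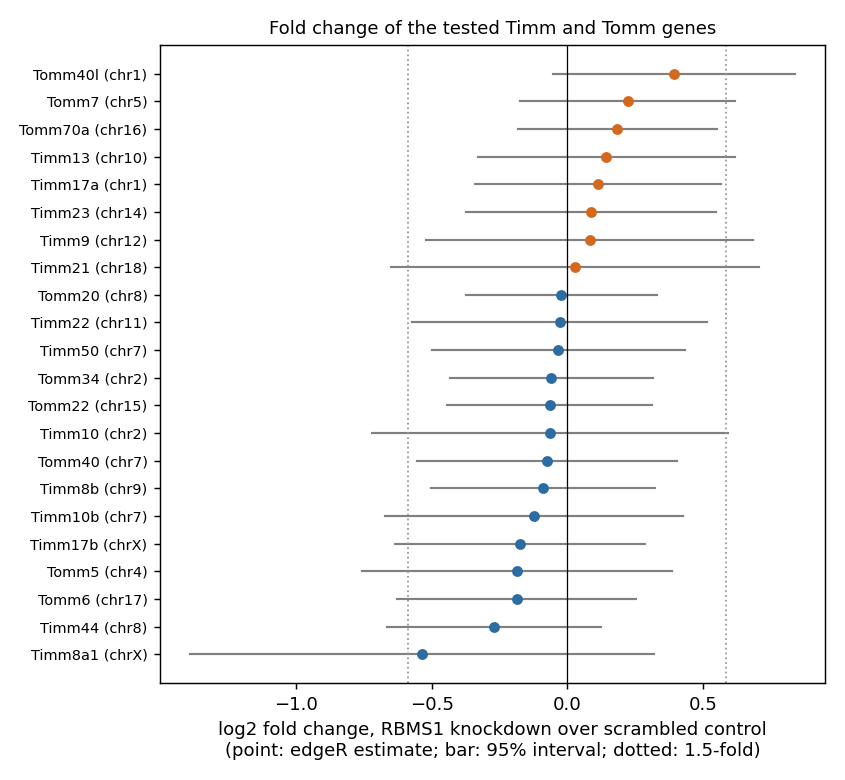
Log2 fold change of each tested Timm and Tomm gene, knockdown over control, ordered by size, with its chromosome in brackets, the 95% interval as a bar and dotted lines at 1.5-fold in either direction. Every bar crosses 0, from Timm8a1 at -0.54 to Tomm40l at 0.39.

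Among the 22 tested genes, levels per length differed far more between the genes than between the groups. With the merged exons of the basic protein-coding transcripts as the length (GENCODE annotation of GRCm38), they ran in the controls from 109 CPM per kb for Tomm6 to 2.58 CPM per kb for Tomm40l. Timm8b (51.6), Timm23 (41.2) and Tomm40 (36.1) followed Tomm6 on this scale, and Timm9 (3.13), Timm21 (3.80) and Timm10b (4.45) were the lowest above Tomm40l. Timm10 stood at 9.03 CPM per kb, above its partner Timm9. The order depends on the length used. With the merged exons of all annotated transcripts, Tomm6 (77.1) and Timm8b (51.6) were again the highest, but Tomm40 was at 13.4, Timm23 at 27.1 and Timm9 at 2.16 CPM per kb, below Tomm40l (2.39).

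The knockdown samples did not move together over these genes. RBMS1 knockdown replicate 1 held the highest of the 6 values for 10 of the 22 tested genes, whereas replicates 2 and 3 each held it for 1, and replicate 2 held the lowest knockdown value for 12. As a median over the genes, relative to the mean of the controls, the log2 level was 0.18, -0.13 and -0.07 in knockdown replicates 1, 2 and 3, and -0.03, 0.02 and 0.05 in the controls. The replicate with the highest levels also differed in its cell markers. Adipocyte markers, over the same scale, were at -0.02 in knockdown replicate 1 and at -0.90 and -0.54 in replicates 2 and 3. Preadipocyte and fibroblast markers were at -1.24 in replicate 1 and at 0.32 and 0.31 in replicates 2 and 3. Of the 11 genes of this list, 6 had a log2 fold change below 0 and 5 above. Pdgfra (-0.87) and Dlk1 (-0.84) were lower in all knockdown samples, a pattern found in 9.55% of all tested genes, and 0 were higher in all. DESeq2 called Pdgfra alone of the 11 (-0.86, adjusted p = 0.0275). The part of the cell markers in the Timm and Tomm values was not tested. Without knockdown replicate 1, the median log2 fold change of the 22 genes was -0.07 with 15 below 0. In that fit edgeR called 0 of the 22, against 5.94% of all tested genes (696 of 11724). Tomm6 was then at -0.40, with an unadjusted p of 0.031 and an adjusted p of 0.228 by edgeR.

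Other nuclear-encoded mitochondrial genes are given beside them. Of 36 tested genes for nuclear subunits of Complex I, the respiratory chain dehydrogenase that is itself imported, 31 were below 0, with a median log2 fold change of -0.38. Of these, 2 were called lower and 16 were lower in all knockdown samples, as against 0 and 0 of the 22 Timm and Tomm genes and 0.909% and 9.55% of all tested genes. Relative to the controls the median Complex I level was -0.22, -0.55 and -0.39 in knockdown replicates 1, 2 and 3, so replicate 1 lay below the controls for Complex I and above them for import genes. The 77 mitochondrial ribosomal protein genes, which serve translation in the matrix, had a median of -0.09, with 50 below 0, 2 called lower and 8 lower in all knockdown samples, the last a share near that of all tested genes. This median was -0.16 without knockdown replicate 1, -0.02 without knockdown replicate 2 and 0.012 with GC content and length trends removed. Scaled by library sizes alone, the median of all tested genes was 0.37, that of the Timm and Tomm genes 0.33, that of the mitochondrial ribosomal protein genes 0.30 and that of Complex I 0.03. Relative to all genes, the Complex I median was below 0 in each of the 19 alternatives (-0.47 to -0.25), and the Timm and Tomm median lay within -0.077 and -0.003. The difference between the lists was not tested.

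**Figure D3:**
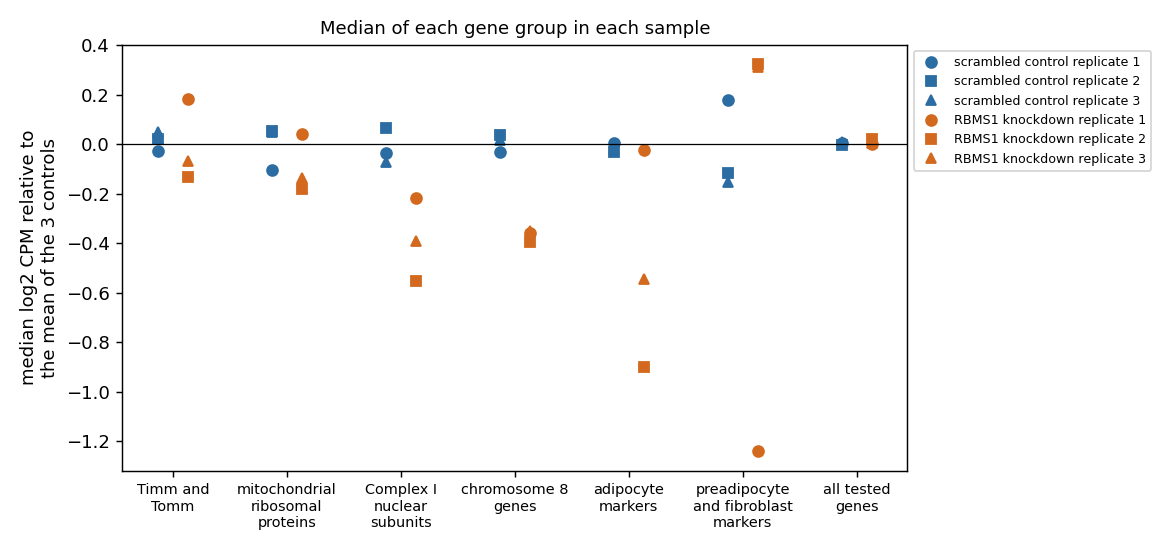
Median log2 CPM of 7 gene groups in each sample, relative to the mean of the 3 controls, with controls in blue, knockdown samples in orange and 1 symbol per replicate. The Timm and Tomm medians lie between -0.13 and 0.18 on both sides of 0, whereas the knockdown samples lie below the controls for Complex I (-0.55 to -0.22) and for chromosome 8 genes (-0.39 to -0.35), and replicate 1 parts from the others for the cell markers.

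The remaining import machinery was read from 5 lists of 54 genes in all, and 0 were called by edgeR (1.22% of all tested genes were). At an unadjusted p under 0.05, edgeR counted 6 of them (12.4% of all tested genes). DESeq2 called 1 of the 54, Dnajc19, against 3.22% of the genes it adjusted. The list of the import motor, matrix chaperones and presequence peptidases had 15 genes, 9 of them below 0, with a median of -0.14. This median was -0.28 without knockdown replicate 1 and 0.010 without knockdown replicate 3. Dnajc19, a J-protein of the import motor, was at 8.01, 16.4 and 12 CPM in the controls and at 6.33, 2.22 and 4.55 CPM in the knockdown samples. All knockdown values lay below all controls, with a log2 fold change of -1.45 (SE 0.413), an adjusted p of 0.178 by edgeR and of 0.0646 by DESeq2. Dnajc19 lies at chr3:34056020-34081321, within the first 50 Mb of chromosome 3, where 90.1% of 91 tested genes were below 0 and the median was -0.64. With chromosome medians removed it was at -0.82 (adjusted p = 0.551 by edgeR), and the part of the chromosome in its value was not tested. The related J-protein Dnajc15 was at -0.54 (SE 0.239) and the nucleotide exchange factor Grpel1 at -0.30 (SE 0.201).

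The list of other import and insertion routes had 11 genes, 8 below 0, with a median of -0.07 (-0.12 to -0.03 with 1 sample left out). Mtch2, an insertase of the outer membrane, was at 167, 174 and 187 CPM in the controls and at 156, 117 and 115 CPM in the knockdown samples. The groups did not overlap, and the log2 fold change was -0.44 (SE 0.163, adjusted p = 0.302 by edgeR). Aifm1, which supports oxidative folding in the intermembrane space, was at -0.31 (SE 0.191), and Agk, a partner of the TIM22 channel, at 0.29 (SE 0.239, and 0.16 to 0.60 with 1 sample left out). Without knockdown replicate 1, edgeR called 2 genes of the 5 lists, Dnajc19 (-1.78, adjusted p = 0.0580) and Mtch2 (-0.59, adjusted p = 0.0590), where 5.94% of all tested genes were called.

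Of 7 cytosolic chaperones that keep precursors unfolded, 5 were below 0, with a median of -0.21 that was -0.33 without scrambled control replicate 1, -0.10 without knockdown replicate 1 and 0.0093 without scrambled control replicate 2. Dnaja2, on chromosome 8, was at -0.40 (SE 0.145, adjusted p = 0.303 by edgeR), and at -0.00098 with chromosome medians removed. Dnaja1 was at -0.24 (SE 0.200) and Hspa8, the constitutive heat shock protein of the cytosol, at -0.22 (SE 0.184). The MICOS complex, which shapes cristae and touches the import machinery, had 6 of 7 genes below 0 and a median of -0.10 (-0.24 to -0.04 with 1 sample left out). Its member 2410015M20Rik (Micos13) was at -0.47 (SE 0.178, adjusted p = 0.313 by edgeR), Chchd6 at -0.27 (SE 0.229) and Apoo at -0.21 (SE 0.254). Of 14 proteases and stress factors linked to import quality control, 9 were below 0, with a median of -0.15 that was -0.23 without knockdown replicate 1 and -0.0086 without knockdown replicate 3. Atad1, an extractor of misplaced tail-anchored proteins, was higher in all knockdown samples at 0.48 (SE 0.182), and Htra2, a protease of the intermembrane space, likewise at 0.37 (SE 0.172). Atf5, a transcription factor of the mitochondrial unfolded protein response, was lower in all knockdown samples at -0.47 (SE 0.205), and the adjusted p of these 3 genes lay between 0.315 and 0.420 by edgeR.

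**Figure D4:**
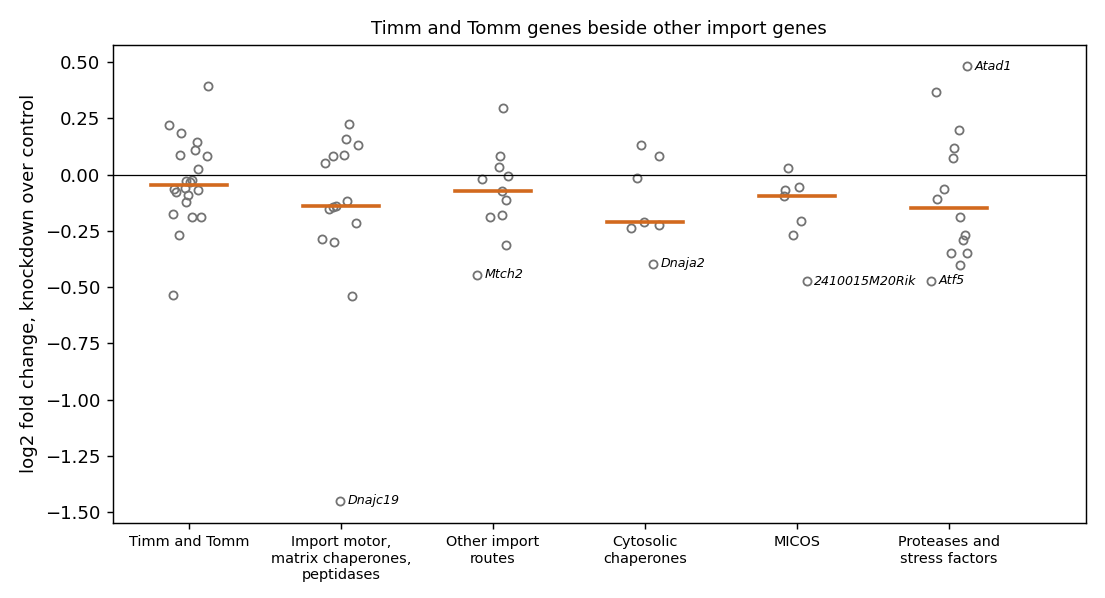
Log2 fold change, knockdown over control, of each tested gene (circles) in the Timm and Tomm set and in 5 lists of other import genes, with the list median as an orange line and names for genes at an unadjusted p under 0.05. No Timm or Tomm gene is named, Dnajc19 lies alone at -1.45, and the medians lie between -0.21 and -0.05.

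The promoters were searched for letters bound by factors known for mitochondrial genes, since transcripts of 1 machinery may share them. Windows of 250 bases before to 50 after the start came from RefSeq (GRCm38.p6). Matched by symbol, the set of windows used held 22 of the 25 genes, and none was found in it for Timm21, Tomm7 and Tomm40l. The letters CCGGAAGT, read by ETS factors such as GABP, stood on either strand in 5 of 22 windows (Timm10, Timm10b, Timm23, Timm8a2 and Tomm70a), or 22.7%, against 4.31% of 27025 genes. Among genes that passed the count filter the shares were 4 of 19, or 21.1%, and 842 of 8413, or 10%. The full NRF1 palindrome stood in 0 of 22 (1.07% of all genes) and the shorter core GCATGCGC in 1, Timm13 (3.05%). The YY1 letters AAGATGGC stood in 1, Timm50 (3.19%). Among genes that passed the filter, the share was 5.26% of the 19 for each of these, against 6.67% of all for the core and 5.73% for YY1. A match is a description of the letters and not a site. The 3 tested genes with a match upstream of the start are shown, 88 bases each, 5′ to 3′ on the strand of the gene, with the match in capitals. Timm13 is at chr10:80901114-80901201 (minus), Timm23 at chr14:32201892-32201979 (minus) and Tomm70a at chr16:57121594-57121681 (plus), and the matches begin 192, 48 and 80 bases before the start.
Timm13: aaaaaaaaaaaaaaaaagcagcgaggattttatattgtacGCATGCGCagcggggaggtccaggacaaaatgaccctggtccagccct
Timm23: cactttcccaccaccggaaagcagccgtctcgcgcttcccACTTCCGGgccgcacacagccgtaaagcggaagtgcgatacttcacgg
Tomm70a: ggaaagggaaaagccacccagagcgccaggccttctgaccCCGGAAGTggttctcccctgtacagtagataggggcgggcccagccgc
The log2 fold changes of these 3 genes were 0.14, 0.09 and 0.18, and those of Timm10 and Timm10b, whose match lies after the start, were -0.07 and -0.12, all without a call.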

How the data were processed

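RNA of 6 samples of 3T3-L1 cells on day 7 was prepared by the authors as stranded total RNA libraries. Reads were trimmed by the authors with Trim Galore 0.6.7, aligned to GRCm38 with STAR 2.7.10a, and summarised per gene with Salmon 1.9.0 (the submitters' processing notes), and the estimated counts were deposited without normalization for 45706 genes. The annotation release and the use of strand in counting are not given in the sources used here.

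After rounding, the counts entered a quasi-likelihood model (edgeR 4.0.16, R 4.3.3, with TMM scaling and the package's filter on low counts) with condition as its only term, 3 scrambled control against 3 RBMS1 knockdown samples, with Benjamini-Hochberg adjustment over the 11440 genes that passed the filter and a call at 0.1 or less. The test was checked on simulated counts. Precision depended on the total counts (3142695 to 11073098) and on the spread between replicates. CPM were taken from TMM-corrected library sizes. Genes were named by rule, namely all Timm and Tomm genes, Rbms1, and in 5 hand-written lists the called genes or, where there were none, up to 3 with the smallest p. Dnajc19, Mtch2 and the other genes of those lists follow that rule. Retn, Lpl, Cd36, Pdgfra, Dlk1, Ptprc, Adgre1, Nr1i3, Gm21981 and Timm29 were named after their values were seen. The genes and lists were chosen with earlier results of these data known. Alternatives were DESeq2 1.42.0, limma-voom (limma 3.58.1), robust and earlier quasi-likelihood estimates, other scalings and filters, no rounding, the replicate number as a block, removal of chromosome medians (chromosome 3 parted at 50 Mb) or of GC content and length trends, and each sample left out.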

Additional observations from a re-analysis of the deposited data

How the results depend on the processing

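Under all 19 alternatives, 0 Timm and Tomm genes were called (main 0). The genes called over the whole table, 140 in the main test, came to 431 with DESeq2, 268 without a filter on low counts, 71 with chromosome medians removed and 39 with a block on the replicate number, and to between 12 and 696 with 1 sample left out. The most came without knockdown replicate 1 and the fewest without control replicate 2. The labels do not say whether samples with the same replicate number were paired. Their deviations correlated at -0.144, 0.078 and -0.028, against -0.173 to 0.206 for samples of unlike number. With 3 samples per group these values cannot settle it. The block changed no call among the Timm and Tomm genes. Lower genes made up 74.3% of the calls, and 33.3% of 126 calls when library sizes alone were used. Rbms1 lay between -0.92 and -0.52 with 1 sample left out and had an adjusted p of 0.0708 without knockdown replicate 3, and it was at -0.31 (adjusted p = 0.572 by edgeR) with library sizes alone. The calls in the 5 import lists, 0 in the main test, were 1 with DESeq2 and between 0 and 2 with 1 sample left out. The cause was not tested for any of these. One alternative, edgeR's earlier estimate, was chosen after seeing the data.

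The median of the 22 genes, -0.047, was 0.33 with library sizes alone, where the median of all tested genes was 0.37, 0.0089 with GC content and length trends removed, and between -0.073 and 0.0073 with 1 sample left out. With library sizes alone, 13 Timm and Tomm genes changed sign without a call, namely Timm44 (0.15), Tomm40 (0.32), Timm50 (0.32), Tomm34 (0.30), Timm22 (0.34), Tomm22 (0.34), Timm10 (0.29), Timm17b (0.18), Tomm6 (0.17), Timm8b (0.32), Tomm5 (0.19), Timm10b (0.22) and Tomm20 (0.36), as did Grpel1 (0.081), Aifm1 (0.11), Hspa8 (0.17), Dnaja1 (0.18), Chchd6 (0.086) and Apoo (0.15). With GC content and length trends removed these were Timm50 (0.059), Timm10 (0.10) and Timm8b (0.14). With chromosome medians removed these were Timm44 (0.13), Timm50 (0.016), Timm22 (0.054), Timm21 (-0.021), Timm17a (-0.13) and Tomm20 (0.37), and with limma-voom Timm21 (-0.0055). With 1 sample left out, values of both signs were found for Tomm40 (-0.25 to 0.075), Timm50 (-0.17 to 0.11), Timm23 (-0.14 to 0.25), Tomm34 (-0.11 to 0.0060), Timm13 (-0.026 to 0.28), Timm22 (-0.21 to 0.15), Timm9 (-0.072 to 0.23), Tomm22 (-0.13 to 0.028), Timm21 (-0.12 to 0.40), Timm10 (-0.31 to 0.087), Timm8b (-0.19 to 0.044), Timm17a (-0.031 to 0.24), Tomm5 (-0.38 to 0.061), Timm10b (-0.29 to 0.044) and Tomm20 (-0.14 to 0.049). Of the same sign but moved by over 1.5 times were, among others, Timm44 (-0.38 to -0.12), Tomm70a (0.083 to 0.31), Tomm7 (0.12 to 0.32), Tomm6 (-0.40 to -0.029), Timm17b (-0.28 to -0.053), Timm8a1 (-0.78 to -0.23), Agk (0.16 to 0.60), Aifm1 (-0.44 to -0.14), Apoo (-0.47 to -0.053), Dnaja1 (-0.37 to -0.081) and Grpel1 (-0.53 to -0.17), all without a call. In the shallowest sample, 3 counts equal 1.49 CPM, and the lower genes of the set had 14 to 27 counts there.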
